A study of Arabidopsis thaliana with 12 samples.

Results

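The genes described here are the 3 catalases and 5 ascorbate peroxidases of Arabidopsis thaliana, which break down hydrogen peroxide. They were chosen by locus identifier, and all 8 were found among the 36917 loci of the table: CAT1 (AT1G20630), CAT2 (AT4G35090), CAT3 (AT1G20620), APX1 (AT1G07890), APX2 (AT3G09640), APX3 (AT4G35000), sAPX (AT4G08390) and tAPX (AT1G77490). Of these, 7 passed the filter on low values and were tested. APX2 did not.

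Catalases split hydrogen peroxide into water and oxygen in the peroxisome without needing a reductant. Ascorbate peroxidases reduce hydrogen peroxide with ascorbate as the electron donor, and the oxidised ascorbate is recycled by dehydroascorbate and monodehydroascorbate reductases together with glutathione. In a leaf in the light, much of the peroxisomal hydrogen peroxide comes from glycolate oxidase in photorespiration, and CAT2 is the catalase that removes most of it. CAT2 transcripts are known to be high early in the day and CAT3 transcripts late in the day.

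The study measured RNA in plants of 4 genotypes with 3 replicates each. They were wild type Col-0, the insertion lines djc31 (SALK_034886) and djc62 (SALK_050913), and the double mutant that carries both insertions, djc31 djc62. Both affected genes encode proteins with tetratricopeptide repeats and a J domain, the part of a co-chaperone that acts on HSP70. All plants grew on soil to the stage of 4 leaves, with 16 h of light at 100 µmol photons m-2 s-1 and 21 °C and 8 h of darkness at 16 °C. No stress treatment is named for any group, and the labels used here do not tell the time of day at harvest. Each single mutant is 1 insertion line. Nothing in the labels ties replicates to separate sowings, and the p-values then cover only sample-to-sample spread, which may be technical.

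Libraries held 13.6 to 31.08 M reads (median 25.79 M). The mean of DJC31 was 727 ± 49.3 normalised reads in wild type, 115 ± 30.8 in djc31, 879 ± 63.9 in djc62 and 47.5 ± 7.79 for the double mutant (SD, n = 3, as for every mean below). DJC62 stood at 516 ± 76.1, 413 ± 93.5, 161 ± 50 and 75.7 ± 17.6 in the same order, so both targets were low where the labels say they should be. Leaf genes were abundant but differed between genotypes. RBCS1A, the small subunit of Rubisco, had means of 687612, 799532, 538972 and 394959 normalised reads in that order, and LHCB1.1, an antenna protein, 340205, 534505, 279107 and 197247. Both means were lowest in the double mutant and highest in djc31. The guard cell genes MYB60 and KAT1 had means of 393 and 560 in wild type and of 220 and 348 in the double mutant. FAMA, also of guard cells, had means of 510 and 466 there, with overlapping libraries. SUC2, of phloem, had means of 2764 in wild type and 3155 in the double mutant. AP1 and OLEO1, of flowers and seeds, had means of at most 3.24. AG, a floral gene, stood at 13.9 to 19.3 in the wild type libraries, against means of 1.69, 3.91 and 0.496 in the mutants. Among root genes, PYK10 had a mean of 1422 in wild type, 1911 in djc31, 2423 in djc62 and 4293 for the double mutant while the root hair genes EXPA7 and COBL9 stayed at means of at most 5.32. The part of these leaf, guard cell, flower and root differences in the results was not tested. In whole plants, a lower transcript level per cell and fewer cells of a type cannot be told apart.

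CAT2, the main leaf catalase, fell in djc31 and in the double mutant. Its values were 38442, 33701 and 44788 normalised reads in the 3 wild type libraries, 20945, 21189 and 17524 in djc31, 29406, 32366 and 31153 in djc62, and 17487, 18973 and 17465 for the double mutant. Every mutant library lay below the lowest wild type library, and the djc31 and double mutant libraries lay below all djc62 libraries. The means were 38977 ± 5563 in wild type, 19886 ± 2049 in djc31 (51.0% of wild type), 30975 ± 1488 in djc62 (79.5%) and 17975 ± 864 for the double mutant (46.1%). In djc31 the log2 change was -0.97 (SE 0.12), or 1.95-fold lower, and in the double mutant -1.11 (SE 0.12), or 2.16-fold lower (limma, adjusted p = 1.49e-05 and 4.91e-06). In djc62 the change of -0.32 missed the threshold (limma adjusted p = 0.0634, 95% interval -0.58 to -0.06). edgeR on the recovered reads gave 0.0467 and DESeq2 0.0182 for that change.

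CAT3, the catalase of vascular tissue and older leaves, went the other way in all 3 mutants. Its values were 14263, 14513 and 13556 normalised reads in wild type, 21962, 29037 and 24115 in djc31, 20609, 20335 and 21280 in djc62, and 34418, 34357 and 36818 for the double mutant. None of the 4 genotypes overlapped another, with wild type lowest, then djc62, djc31 and the double mutant. The log2 change against wild type was 0.82 (SE 0.11) in djc31, 0.56 in djc62 and, largest of the 3, 1.32 for the double mutant, or 1.76-, 1.47- and 2.49-fold (limma adjusted p = 3.46e-05, 0.00144 and 2.29e-07). The neighbouring levels of djc62 and djc31 were not told apart by the test of their difference (log2 -0.26, 95% interval -0.50 to -0.02, limma adjusted p = 0.131).

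CAT1, known from pollen and seeds, rose in all 3 mutants but had its highest level in djc31. Its values were 599, 608 and 639 normalised reads in wild type, 1262, 1384 and 1195 in djc31, 763, 903 and 846 in djc62, and 815, 801 and 835 for the double mutant. The djc31 libraries stood above all others, the djc62 and double mutant libraries overlapped, and wild type was lowest. CAT1 rose 2.08-fold in djc31, 1.36-fold in djc62 and 1.33-fold when both genes were mutated (log2 1.05, 0.44 and 0.41, limma adjusted p = 1.03e-06, 0.00498 and 0.00802). The double mutant was thus 1.56-fold below djc31 (log2 -0.65, limma adjusted p = 0.0003), while it did not pass a test against djc62 (log2 -0.03, 95% interval -0.26 to 0.19, adjusted p = 0.867).

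**Figure D1:**
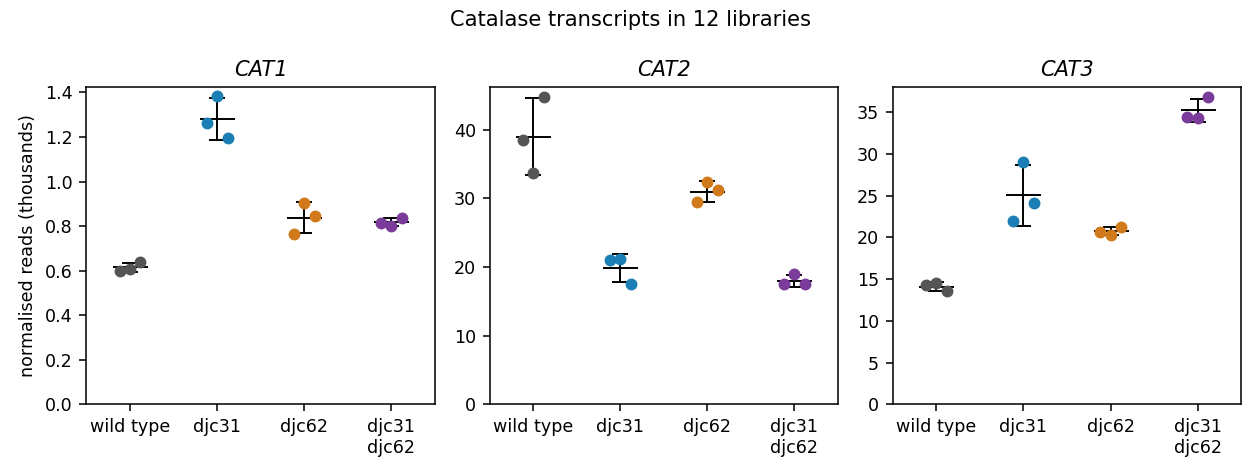
Normalised reads (axes linear from 0) of CAT1, CAT2 and CAT3 in each of the 12 libraries by genotype; points are libraries, horizontal bars are means and whiskers are SD (n = 3). CAT2 lies at 17465 to 21189 in the djc31 and double mutant libraries against 33701 to 44788 in wild type, while CAT3 is highest in the double mutant and CAT1 in djc31.

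With CAT2 lower and CAT3 higher, the balance of catalase reads moved towards CAT3. This ratio and the sum below were chosen after the values were seen, and are given as a description with no test. CAT3 reads per CAT2 read were 0.371, 0.431 and 0.303 in wild type, 1.05, 1.37 and 1.38 in djc31, 0.701, 0.628 and 0.683 in djc62, and 1.97, 1.81 and 2.11 for the double mutant. No genotype overlapped another in this ratio. Relative to wild type, the mean ratio was 3.44-fold in djc31, 1.82-fold in djc62 and 5.33-fold for both mutations together. CAT2 made up 72.4% of all catalase reads in wild type, 43.1% in djc31, 58.9% in djc62 and 33.3% for the double mutant, and CAT3 made up 26.5%, 54.1%, 39.5% and 65.2%. CAT1 never exceeded 2.86% in any library. Reads were not divided by transcript length, so these shares compare genotypes and not the amounts of the 3 transcripts.

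The sum of the 3 catalases moved far less than its parts. It was 53703 ± 5093 normalised reads in wild type, 46205 ± 4729 in djc31 (86.0%), 52554 ± 1546 in djc62 (97.9%) and 53990 ± 1205 for the double mutant (100.5%). The sum in the double mutant was 1.21-fold that of wild type when libraries were scaled by their totals. The ratio within a library does not depend on the scaling between libraries.

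**Figure D2:**
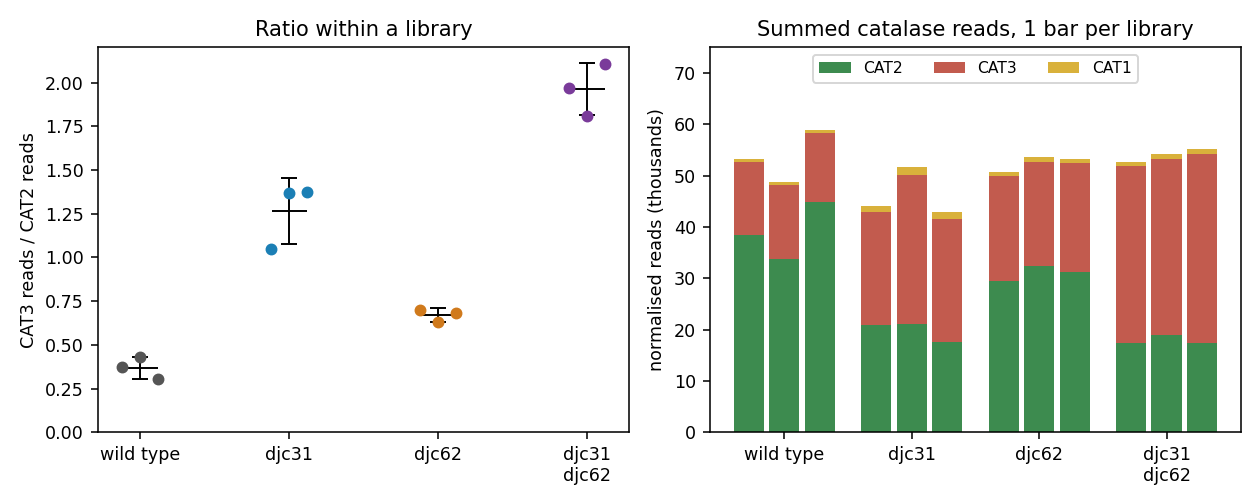
Catalase reads by library and genotype, with the CAT3 to CAT2 ratio and the summed reads of the 3 catalases. The ratio runs from 0.303 to 0.431 in wild type and from 1.81 to 2.11 in the double mutant, while the mean sum of the double mutant is 100.5% of wild type.

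The tested ascorbate peroxidases changed less than CAT2 and CAT3, and each of their calls against wild type was a fall. In the double mutant, the cytosolic APX1, the peroxisomal APX3 and the chloroplast forms sAPX and tAPX all fell, by 1.35- to 1.51-fold. Scaled by library totals, only sAPX of these still passed there (limma adjusted p = 0.128 for APX1, 0.21 for APX3 and 0.291 for tAPX). In djc31 only sAPX of these passed the test, and in djc62 none did.

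sAPX, the stromal enzyme that is also found in mitochondria, gave 4342, 4061 and 5158 normalised reads in wild type, 3953, 3229 and 3035 in djc31, 4748, 4228 and 4451 in djc62, and 2756, 3105 and 3067 for the double mutant. All djc31 and double mutant libraries lay below wild type, and djc62 overlapped it. The fall was 1.33-fold in djc31 (log2 -0.41, SE 0.12, limma adjusted p = 0.0141) and 1.51-fold in the double mutant (log2 -0.60, adjusted p = 0.00103). The djc31 call was lost without wild type replicate 3 (limma adjusted p = 0.0688) and without djc31 replicate 3 (0.0574). In djc62 the change was -0.01 on the log2 scale, with a 95% interval of -0.25 to 0.24 (limma adjusted p = 0.967).

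tAPX, bound to the thylakoid membrane, gave 5033, 4341 and 4364 normalised reads in wild type, 3318, 3755 and 4288 in djc31, 4076, 4452 and 3874 in djc62, and 3416, 3334 and 3298 for the double mutant. The double mutant libraries lay below every wild type library, djc31 did too with its highest library near the lowest of wild type, and djc62 overlapped. Only the double mutant passed, with a 1.36-fold fall (log2 -0.45, limma adjusted p = 0.00472), and that call was lost when libraries were scaled by their totals (0.291). In djc31 the log2 change was -0.28 (95% interval -0.50 to -0.05, limma adjusted p = 0.063), and it passed without djc31 replicate 3 (0.0174).

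APX1, the main cytosolic form, gave 14361, 13148 and 18281 normalised reads in wild type, 16957, 14703 and 11209 in djc31, 17000, 12724 and 13436 in djc62, and 10758, 10755 and 10878 for the double mutant. The single mutants overlapped wild type, and the double mutant lay below all other libraries with a spread of only 70.0. Its fall was 1.40-fold (log2 -0.49, SE 0.15, limma adjusted p = 0.025). The single mutants changed by -0.10 (95% interval -0.43 to 0.22) and -0.08 (-0.41 to 0.24) on the log2 scale.

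APX3, the peroxisomal membrane form, gave 4648, 4632 and 5906 normalised reads in wild type, 6119, 5283 and 4193 in djc31, 5051, 4054 and 3858 in djc62, and 3485, 3637 and 4049 for the double mutant. The double mutant lay below wild type and djc31, and overlapped djc62. Its fall was 1.35-fold (log2 -0.44, SE 0.14, limma adjusted p = 0.0286), and the single mutants gave 0.03 (95% interval -0.27 to 0.33) and -0.23 (-0.53 to 0.07).

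The double mutant calls of APX1 and APX3 depended on single libraries. Without wild type replicate 3, the library with the highest APX1 and APX3 among wild type, the limma adjusted p was 0.12 for APX1 and 0.13 for APX3. Leaving out 1 double mutant library also ended the APX1 call (adjusted p from 0.0632 to 0.0688), and for APX3 this held for replicates 1 and 2 (0.107 and 0.0843).

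APX2, the cytosolic form induced by heat and strong light, was at the limit of detection. Its reads were 0, 0 and 4 in the wild type libraries, 0 in every djc31 library, 0, 2 and 0 in djc62, and 0, 4 and 2 for the double mutant. The 0 reads of djc31 allow up to 3 reads over its libraries, or 1.25 normalised reads on average. No genotype can be ranked above another at this depth, and no fold is given.

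**Figure D3:**
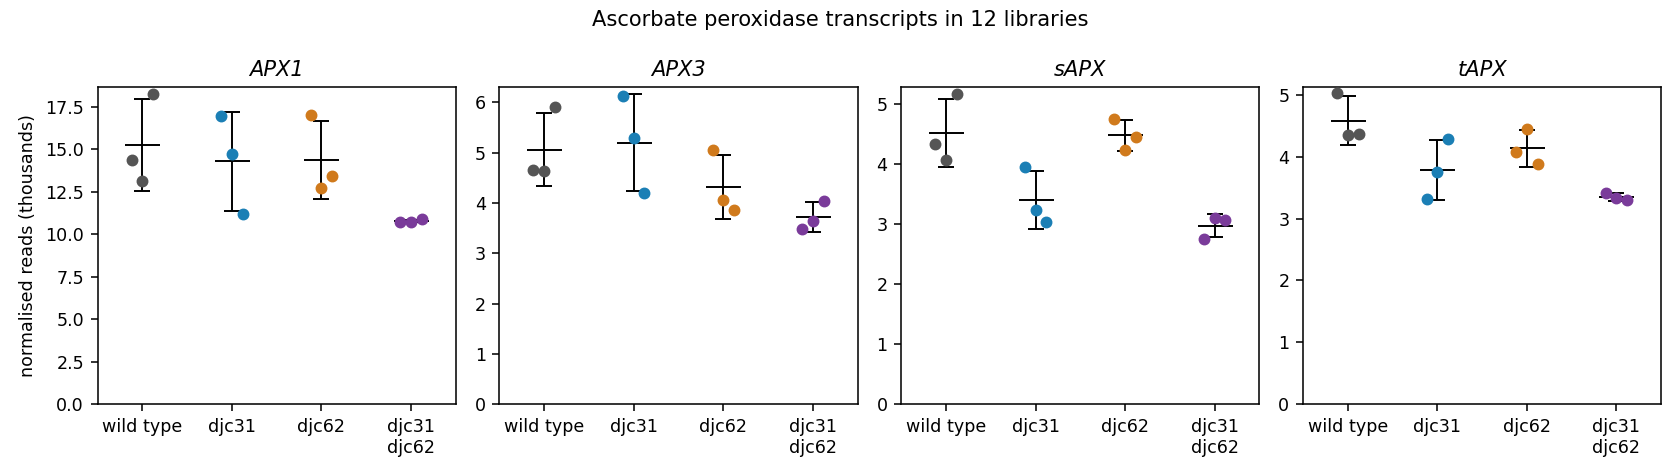
Normalised reads (linear axes) of APX1, APX3, sAPX and tAPX in each library by genotype. Points are libraries and bars are means with SD (n = 3). The double mutant libraries of APX1 sit between 10755 and 10878, below all others. APX2, at or near 0 in all genotypes, is not drawn.

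Counted over the 7 tested genes, 2 rose and 2 fell in djc31 against wild type, where 27.5% of all tested loci passed (13.3% higher, 14.2% lower). In djc62, 2 rose and 0 fell, against 26.7% of loci (13.7% higher, 13% lower). CAT2 counted as a fall there in edgeR and DESeq2, as given above, and with library totals (limma adjusted p = 0.0498). It did so too without wild type replicate 2 (0.029) and without djc31 replicate 3 (0.0431). The other 15 of 20 alternatives left CAT2 uncalled in djc62. In the double mutant, 2 rose and 5 fell, against 29.2% of loci (13.8% higher, 15.5% lower). The median log2 change of the tested genes was -0.10, -0.08 and -0.45 in djc31, djc62 and the double mutant, and that of all tested loci -0.01, -0.00 and 0.02. These 3 comparisons share the same wild type libraries. When libraries were scaled by their totals, the double mutant calls became 2 rises and 2 falls. Of the 19975 tested loci, 5804 rose and 1432 fell there. The median of all tested loci moved by 0.27 on the log2 scale in the double mutant and by -0.13 in djc31 under that scaling. The 2 scalings differ by 1 factor per library, so taking that shift off returns nearly the deposited changes by arithmetic. The double mutant changes were then -1.11 for CAT2, 1.32 for CAT3, -0.60 for sAPX, -0.45 for tAPX, -0.48 for APX1 and -0.43 for APX3. These values are no separate support for the calls.

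**Figure D4:**
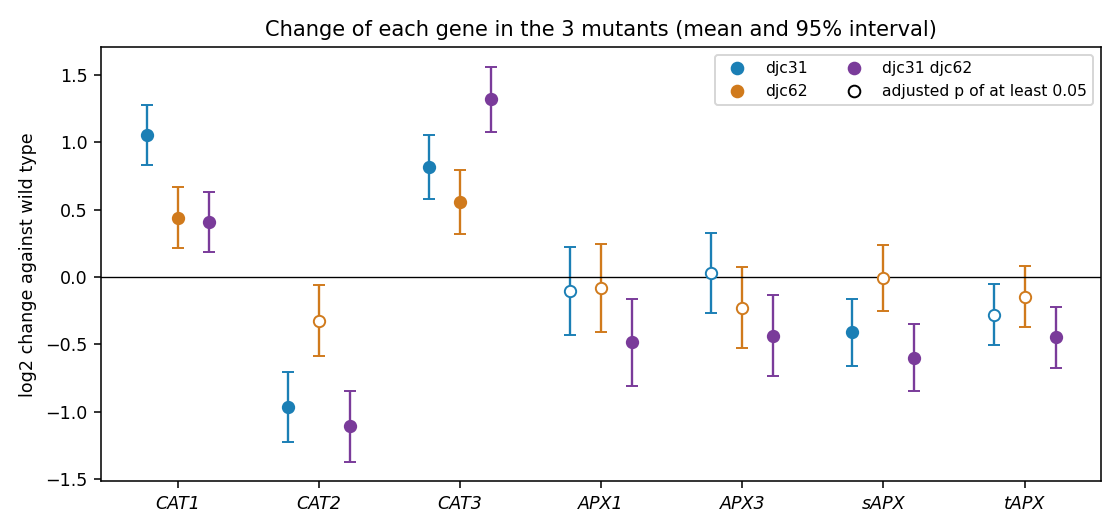
Log2 change against wild type of the 7 tested genes in djc31, djc62 and the double mutant, from the limma fit to all 12 libraries; bars are 95% intervals. CAT3 and CAT1 lie above 0 in all 3 mutants, and CAT2 reaches -1.11 in the double mutant.

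Set against the single mutants, the double mutant differed in CAT3 from both, in CAT2 from djc62 and in CAT1 from djc31. Against djc31, it had 3 of 7 tested genes past the threshold (31.3% of loci, 15.3% higher and 16% lower): CAT3 was 1.41-fold higher (log2 0.50, limma adjusted p = 0.00335), CAT1 1.56-fold lower and APX3 1.38-fold lower (log2 -0.47, adjusted p = 0.0193). CAT2 did not pass between them (log2 -0.14, 95% interval -0.40 to 0.12, adjusted p = 0.406). Against djc62, 3 of 7 passed (19.7% of loci, 9.38% higher and 10.4% lower): CAT3 was 1.70-fold higher, CAT2 1.72-fold lower and sAPX 1.5-fold lower (log2 0.76, -0.79 and -0.59, limma adjusted p = 0.000177, 0.000291 and 0.00189). Between the single mutants 3 of 7 passed (13.8% of loci, 7.91% higher and 5.85% lower): CAT1 was lower in djc62, CAT2 was 1.56-fold higher and sAPX higher (log2 -0.61, 0.64 and 0.40, limma adjusted p = 0.00162, 0.00316 and 0.0304). The APX3 call was lost without djc31 replicate 1 or 2 (limma adjusted p = 0.084 and 0.0531) or without double mutant replicate 1 or 2 (0.0792 and 0.066). The sAPX call between the single mutants was lost without djc31 replicate 2 or 3 or any 1 djc62 library (0.0558 to 0.0951).

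The non-additive contrast subtracts the sum of both single mutant changes from the change of the double mutant. It passed for 1 of 7 genes (31.2% of loci, 15.8% higher and 15.4% lower), which was CAT1 with -1.09 on the log2 scale (SE 0.15, 95% interval -1.40 to -0.77, limma adjusted p = 3.3e-05). The single mutant changes of CAT1, 1.05 and 0.44, thus sum to more than the 0.41 of the double mutant. For CAT3 the contrast was -0.06 (95% interval -0.39 to 0.28, adjusted p = 0.824), and for CAT2 0.18 (-0.19 to 0.55, adjusted p = 0.46). Scaled by library totals, the CAT2 value was 0.51 and passed (limma adjusted p = 0.00583).

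Across the 12 libraries, CAT2 and CAT3 ran opposite to each other (Pearson r of log2 values -0.90), CAT2 ran with sAPX (0.91) and APX1 with APX3 (0.90). These are descriptions over libraries that fall into 4 genotypes. The loci whose pattern over the 12 libraries was most like that of CAT1 were RD19 (AT4G39090, r = 0.975), a cysteine protease, and AT2G46900 (0.972). For CAT2 they were AT2G40400 (0.991) and CT-BMY (AT4G17090, 0.971), a plastid beta-amylase, and for CAT3 HB5 (AT5G65310, 0.981), a homeobox transcription factor, and ADH1 (AT1G77120, 0.973), alcohol dehydrogenase. For APX1 they were AT5G42980 (0.956) and AT3G06610 (0.955), and for APX3 AT1G07940 and AT3G59980 (0.975 and 0.974). For sAPX they were BETA-OHASE 2 (AT5G52570, 0.975), a beta-carotene hydroxylase, and mMDH1 (AT1G53240, 0.970), a mitochondrial malate dehydrogenase. For tAPX they were AT5G08650 (0.943) and AT5G66240 (0.926).

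Further genes were read beside the members from lists of their pathway. Their counts stand beside all tested loci, of which 13.3% rose and 14.2% fell in djc31, 13.7% and 13% in djc62, and 13.8% and 15.5% in the double mutant. Scaled by library totals, 5804 of 19975 loci rose and 1432 fell in the double mutant, and 1709 rose and 3625 fell in djc31. Of the 3 other genes of the ascorbate peroxidase family, TL29/APX4, a thylakoid lumen protein, and APX6 fell in the double mutant. TL29/APX4 went from 9621 to 7430 normalised reads (log2 -0.37, limma adjusted p = 0.00414) and APX6 from 738 to 521 (log2 -0.51, adjusted p = 0.0225, lost without wild type replicate 3 at 0.0702 and without double mutant replicate 1 or 3 at 0.115 and 0.0618). APX5 stood at 47.9 in wild type and 86.6 in the double mutant and did not pass (limma adjusted p = 0.0627). It passed as a rise with library totals (0.0145), with DESeq2 (0.036), with the genotypes of the comparison alone (0.0296), and without djc31 replicate 1 or 2 (0.0484 and 0.0479). With library totals the 3 genes gave 1 rise and 0 falls, with TL29/APX4 at 0.319 and APX6 at 0.192. None of the 3 passed the limma test in either single mutant, and DESeq2 called 1 fall in djc62.

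Of 8 photorespiration genes, 0 rose and 8 fell in the double mutant. In each single mutant 1 fell, but in djc62 DESeq2 called 5 falls and edgeR 2, and in djc31 library totals gave 3. Whether the mutants differ in these counts was not tested. GOX1, a glycolate oxidase whose reaction produces the hydrogen peroxide that CAT2 removes, went from 44049 ± 5140.5 normalised reads to 28808 ± 225 (log2 -0.61, limma adjusted p = 0.00105). HPR1, the peroxisomal hydroxypyruvate reductase, went from 30740 to 17770 (log2 -0.78, adjusted p = 0.00124). GOX2 and GLDP1, a P protein of glycine decarboxylase, fell by 1.48- and 1.44-fold. GLDP1 was the single call in djc31 (adjusted p = 0.0169, lost without wild type replicate 1 or 3 at 0.0811 and 0.0512) and HPR1 that in djc62 (0.0361, up to 0.152 without wild type replicate 3). Scaled by library totals, 4 of the 8 fell in the double mutant. Leaving out single libraries gave 6 to 8 falls in the double mutant, 0 to 1 in djc31 and 0 to 2 in djc62.

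The enzymes that recycle ascorbate moved in both directions. Of 10, 3 rose and 3 fell in djc31, 5 rose and 3 fell in djc62, and 3 rose and 5 fell in the double mutant. DHAR1, a cytosolic dehydroascorbate reductase, rose from a wild type mean of 3075 ± 446 normalised reads to 8869 ± 1814, 11370 ± 1065 and 7533 ± 725 in djc31, djc62 and the double mutant (limma adjusted p = 5.87e-07, 4.1e-08 and 4.91e-06). MDAR3, a monodehydroascorbate reductase, rose from 10 ± 4.91 to 135 ± 46.3, 463 ± 229 and 72.1 ± 38.2 (limma adjusted p = 8.84e-06, 1.31e-07 and 0.000251). MDAR2 rose in both single mutants (1.90- and 2.47-fold) and MDAR4, a peroxisomal membrane form, fell 1.46- and 1.42-fold. GR2, the organellar glutathione reductase, and DHAR3, the plastid dehydroascorbate reductase, fell 1.51- and 1.48-fold in the double mutant. With library totals the double mutant split became 4 rises and 2 falls. The djc62 falls dropped to 1 without wild type replicate 1, djc62 replicate 2 or djc62 replicate 3. The djc62 rises ranged from 4 to 5 with single libraries left out. MDAR6 was the rise lost, without any 1 wild type or djc62 library (limma adjusted p = 0.0587 to 0.126). Leaving out double mutant replicate 1 or 2 also ended it (0.0552 and 0.0572), as did the genotypes of the comparison alone (0.0579).

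Of 9 genes of ascorbate and glutathione synthesis, 3 rose and 2 fell in djc31, 4 rose and 2 fell in djc62, and 1 rose and 3 fell in the double mutant. VTC2, which makes the committed step of ascorbate synthesis, dropped from 12599 ± 2434 normalised reads to 2656 ± 166, 3865 ± 299 and 5468 ± 786 in djc31, djc62 and the double mutant (log2 -2.23, -1.69 and -1.20, limma adjusted p = 1.52e-09, 6.67e-08 and 5.13e-06). GSH2, glutathione synthetase, rose 2.12-fold in djc31 and 2.44-fold in djc62 (adjusted p = 2.45e-06 and 3.99e-07). VTC4, a phosphatase of the same ascorbate pathway as VTC2, fell 1.47-, 1.62- and 1.36-fold. With library totals the double mutant split became 3 rises and 1 fall. The djc62 rises dropped to 2 without wild type replicate 1 or 2, djc62 replicate 1 or 2 or any 1 double mutant library, and also without the filter. GSH1, the first enzyme of glutathione synthesis, and VTC1, of ascorbate synthesis, were the calls lost there. The rise in the double mutant was VTC1 (limma adjusted p = 0.0415), lost without wild type replicate 1 or 2, djc62 replicate 2 or any 1 double mutant library (0.0523 to 0.17). VTC1 was also a rise in djc31, lost with library totals, without the filter and with a replicate block (limma adjusted p = 0.173, 0.0686 and 0.0571). That call was lost too without wild type replicate 1 or 2 (0.132 and 0.141) or djc31 replicate 1 or 2 (0.153 and 0.102). Leaving out djc62 replicate 2 or any 1 double mutant library also ended it (0.0609 to 0.0664).

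Of 16 peroxiredoxins and glutathione peroxidase-like genes, 14 were tested. In the double mutant 0 rose and 6 fell, in djc31 1 rose and 1 fell, and in djc62 1 fell. The plastid form GPXL7 went from 522 ± 31.6 normalised reads to 297 ± 7.04 in djc31 and 223 ± 16.7 in the double mutant (limma adjusted p = 0.000142 and 2.43e-06). The chloroplast peroxiredoxins 2CPA, 2CPB and PRXIIE fell 1.49-, 1.61- and 1.76-fold in the double mutant. With library totals the split was 2 rises and 4 falls, and 4 fell without wild type replicate 3 or double mutant replicate 1 or 2. PRXIIE was the fall in djc62 (limma adjusted p = 0.0415), up to 0.199 without wild type replicate 3. GPXL5 was the rise in djc31 (1.56-fold, adjusted p = 0.00132).

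**Figure D5:**
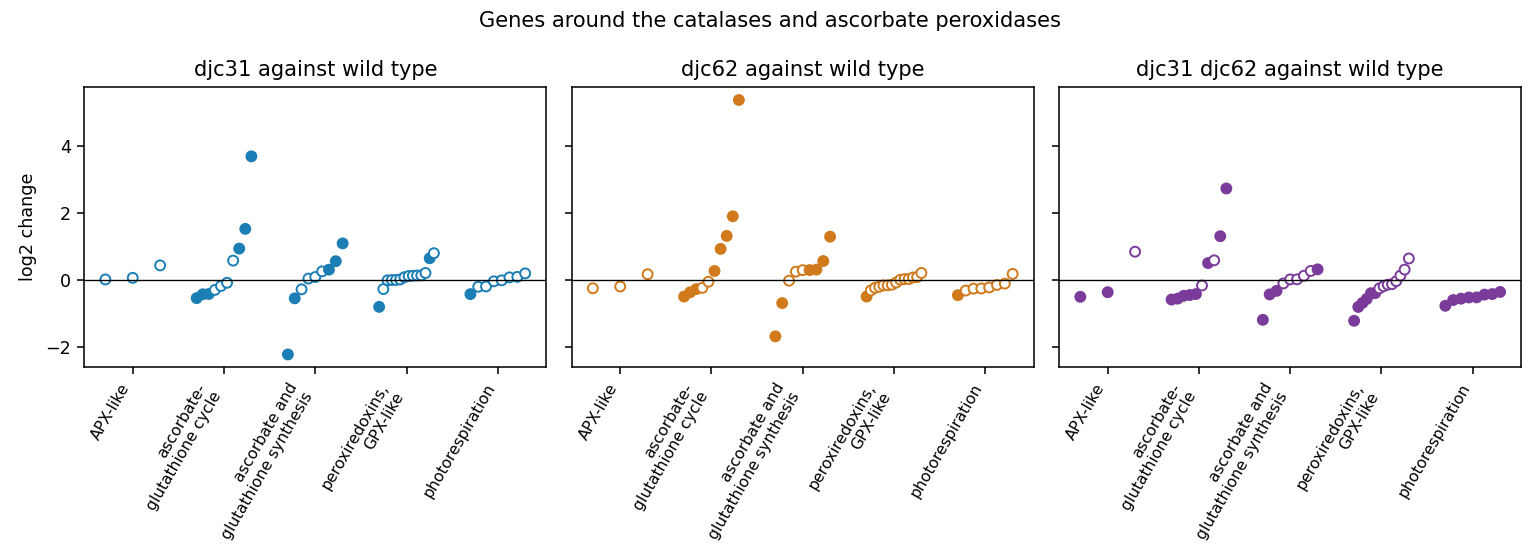
Log2 change against wild type of each tested gene of 5 lists around the catalases and ascorbate peroxidases, by mutant; each circle is a gene, filled where the limma adjusted p is under 0.05. The 8 photorespiration genes are all filled and below 0 in the double mutant, and the recycling enzymes spread on both sides of 0.

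Of 9 partners and regulators of these enzymes, 1 rose and 4 fell in djc31, and 3 fell in each of djc62 and the double mutant. NCA1, a protein needed for catalase activity, rose 1.29-fold in djc31 (limma adjusted p = 0.0136, lost without wild type replicate 2 at 0.0507 and without djc31 replicate 1 at 0.053). GBF1, a bZIP factor that represses CAT2, fell in the double mutant from 2202 ± 671 normalised reads to 1478 ± 78.3 (log2 -0.53, adjusted p = 0.0184, lost without wild type replicate 2 at 0.112 and without double mutant replicate 2 at 0.0705). ZAT10 and ZAT12, zinc finger factors that respond to oxidative stress, fell in all 3 mutants. ZAT12 went from 425 ± 193 normalised reads to 57.2 ± 22.5, 29.5 ± 1.36 and 123 ± 9.04 (limma adjusted p = 2.78e-06, 1.42e-07 and 0.000688). HSFA2, the heat stress factor that activates APX2, was at a mean of 16.9 normalised reads in wild type and at most 11.2 in the mutants, with limma adjusted p of 0.0137 in djc31, 0.0518 in djc62 and 0.706 for the double mutant. The djc31 call was lost without wild type replicate 1 (0.0829) and with the genotypes of the comparison alone (0.0604). edgeR and DESeq2 called 4 falls in djc62 in place of 3. With library totals the split was 0 rises and 4 falls in djc31, and 1 rise and 2 falls in the double mutant. The NCA1 call in djc31 and the GBF1 call in the double mutant were lost there (limma adjusted p = 0.0566 and 0.274).

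CAT2 and CAT3 follow the time of day, so clock genes are given beside them. Of 12 clock genes, 11 were tested, and 5 rose and 3 fell in djc31, 5 rose and 3 fell in djc62 and 4 rose and 3 fell in the double mutant. The morning gene CCA1 went from 4142 ± 403 normalised reads to 1560 ± 348, 2824 ± 422 and 2315 ± 376 in djc31, djc62 and the double mutant (the djc62 call was lost without wild type replicate 1 or djc62 replicate 1, at limma adjusted p = 0.0744 and 0.081). LHY, its close relative, went from 3984 ± 298 to 1178 ± 84.7, 2399 ± 261 and 1705 ± 234 (log2 -1.76, -0.73 and -1.23, limma adjusted p = 7.5e-09, 0.000178 and 8.5e-07). Other clock genes rose. GRP7, a clock-controlled RNA-binding protein, was 7.1-fold higher in djc31, 2.3-fold in djc62 and 1.5-fold in the double mutant (limma adjusted p = 5.52e-10, 2.21e-05 and 0.00993), the last lost without double mutant replicate 3 (0.0691). PRR5, a pseudo-response regulator, rose 14.5-fold in djc62, from a wild type mean of 6.55 normalised reads, and TOC1, an evening gene, 1.87-fold in djc62 and 1.6-fold in the double mutant (limma adjusted p = 1.04e-05, 0.000182 and 0.00221). The rises in the double mutant went from 4 to 2 without double mutant replicate 3. The part of the clock in the catalase changes was not tested. Of 8 senescence genes, 7 were tested, and 1 rose and 3 fell in djc31 and 1 rose and 2 fell in each of the other two mutants. The rise in djc31 was NYC1, a chlorophyll b reductase, at a limma adjusted p of 0.0499, which edgeR lost (0.0527), as did leaving out wild type replicate 1 or 2, djc31 replicate 1 or 2, or any 1 djc62 or double mutant library (0.051 to 0.243). The rise in the double mutant was SAG13 (0.0439), lost without any 1 wild type or double mutant library or djc31 replicate 3 (0.0507 to 0.134). Library totals gave 3 rises there. SAG12, a protease of senescing leaves, had 0 reads in every library. NAP, a senescence factor, went from 227 ± 77.2 normalised reads to 97.3 ± 6.68, 71.8 ± 9.13 and 86.3 ± 33.1.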

How the data were processed

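RNA of 12 libraries was sequenced after Trizol extraction and TruSeq preparation, per the labels' protocols. Trimmomatic, FastQC and featureCounts with TAIR10 are named in the submitters' processing notes. These notes name no aligner, strand option or rule for multiply matching reads (not given in the sources used here), so reads of close relatives (CAT1, CAT2 and CAT3, which include neighbouring loci, APX1 and APX2, sAPX and tAPX) could be shared in an unknown way. The authors deposited 1 normalised signal per locus and library, in which reads of each library were scaled by 1 factor (recovered reads were whole within 0.01 for 100% of values). Factors ran from 0.465 to 1.34, and 3 reads correspond to 0.0965 to 0.221 CPM, for counting error only.

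The main test was limma 3.58.1 with a mean-variance trend (R 4.3.3) on log2(value + 1), over all 12 libraries with 1 mean per genotype and 8 residual degrees of freedom. This test was set for normalised values, with edgeR quasi-likelihood as the choice had the values been raw counts. Of 36917 loci, the 19975 that reached 10 in 3 or more libraries were tested, with Benjamini-Hochberg adjustment in each of 7 comparisons and a threshold of 0.05. Fold changes on this scale understate low genes. edgeR 4.0.16 and DESeq2 1.42.0 were run on the recovered reads, as were other pseudocounts, no filter, library totals, single libraries left out, the genotypes of the comparison alone and a replicate block. The genes and lists were chosen with earlier results of these data known. Named genes are the members, up to 4 per list with the lowest adjusted p, the 3 other family genes and the 2 most similar loci per member. The 8 members matched the RefSeq gene table by locus. Replicate pairs differed by more than sampling noise (chi-square per locus 6.60 to 33.0).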

Additional observations from a re-analysis of the deposited data

Results flagged for a closer look

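The genes below passed the non-additive contrast (log2, limma over all 12 libraries, adjusted over all tested loci). Of all tested loci, 31.2% passed it, 15.8% higher and 15.4% lower. Reads of DJC31 and DJC62 remained in their mutants and were lowest in the double mutant, so the contrast does not compare full losses. Among the catalases and ascorbate peroxidases, CAT1 passed, with -1.09 (SE 0.15, limma adjusted p = 3.3e-05).

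Of 10 ascorbate recycling enzymes, 1 was higher and 5 lower. The 4 with the lowest limma adjusted p were DHAR1 with -2.11 (SE 0.21, 7.43e-07), MDAR2 with -1.74 (SE 0.17, 7.8e-07), MDAR3 with -6.32 (SE 0.64, 1.15e-06) and MDAR4 with 0.60 (SE 0.14, 0.00345). Of 9 genes of ascorbate and glutathione synthesis, 2 were higher and 4 lower. The 4 with the lowest limma adjusted p were VTC2 with 2.72 (SE 0.19, 1.38e-08), GSH2 with -2.11 (SE 0.17, 7.05e-08), VTC4 with 0.81 (SE 0.14, 0.000388) and GME with -0.61 (SE 0.13, 0.00179).

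GPXL5, a glutathione peroxidase-like gene, gave -0.79 (SE 0.18, limma adjusted p = 0.00356), and GLYK, the glycerate kinase of photorespiration, gave -0.73 (SE 0.15, 0.00176). Among regulators, ZAT12 gave 4.85 (SE 0.44, 3.68e-07), ZAT10 2.62 (SE 0.37, 4.35e-05), HSFA3 2.05 (SE 0.38, 0.000575) and HSFA2 4.85 (SE 1.2, 0.00548). HSFA2 had few reads in every genotype. With library totals, the values of GPXL5 and GME were -0.46 and -0.28 and no longer passed (limma adjusted p = 0.0848 and 0.128).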

How the results depend on the processing

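The calls of CAT1, CAT2 and CAT3 against wild type in djc31 and the double mutant, and of CAT1 and CAT3 in djc62, held under all alternatives run. Scaling by library totals changed most: the log2 change became -0.10 for APX3 in djc31, 0.0627 for sAPX in djc62, 0.26 for CAT2 (double mutant against djc31, limma adjusted p = 0.0274) and 0.16 for CAT1 (against djc62), and the non-additive value of CAT3 0.27, while the members called were 4 in the double mutant and 2 in the non-additive contrast (CAT1, and CAT2 with 0.51), and the catalase sum of the double mutant was 1.21-fold that of wild type. It also ended the CAT1 and APX3 calls of the double mutant against djc31 (limma adjusted p = 0.0914 and 0.605). Without a filter, the APX1 and APX3 calls in the double mutant were lost (0.054 and 0.051). With DESeq2 and with the genotypes of the comparison alone, 5 members passed for the double mutant against djc62, and with those genotypes alone 6023 of all loci passed there, 1502 for djc62 against djc31, and sAPX in djc31 was lost (0.0566). The cause was not tested.

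With single libraries left out, the log2 change ranged from -0.24 to 0.0632 for APX1 and from -0.10 to 0.18 for APX3 in djc31, from -0.21 to 0.05 for APX1 and from -0.0821 to 0.0905 for sAPX in djc62, from -0.098 to 0.0233 for CAT1 (double mutant against djc62), and from -0.15 to 0.0562 for the non-additive value of CAT3. Members called ranged from 5 to 7 in the double mutant and from 3 to 5 against djc62. All loci called ranged from 4033 to 6613 (double mutant against djc31), 2338 to 4738 (against djc62) and 1110 to 3193 (djc62 against djc31). The CAT3 to CAT2 fold ranged from 3.16 to 3.76 in djc31, 1.67 to 1.99 in djc62 and 4.90 to 5.83 in the double mutant; these 2 catalase measures and their alternatives were chosen after seeing the data.

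Replicate numbers did not pair the libraries (18 same-number correlations from -0.15 to 0.11, and 0 of 12 libraries correlated best with their own number). A replicate block changed none of the 36 member values' calls, with 7 members and 5509 loci called in the double mutant. In the lists, the block left 4 rises and 2 falls of ascorbate recycling and 2 rises of synthesis genes in djc62, and ended the senescence rises in djc31 (NYC1, 0.0759) and the double mutant (SAG13, 0.0597). Alternatives for single list genes were followed only where the main fit called the gene, against wild type or in the non-additive contrast. The other ascorbate peroxidase family genes in the double mutant were followed whether called or not. Of these values, 2503 kept their call, 183 lost it, 5 gained it (all for APX5) and 0 turned direction. Uncalled genes of the other lists were left out, so these values cannot count the calls gained. Depth limits APX2, HSFA2 and SAG12.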
